A study of Mus musculus with 15 samples.

Results

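The Bcl2 family and the p53 response were followed in 10 genes, of 27803 counted in the series, through granule cell differentiation, tumor growth and Smo inhibition. The 10 members were chosen by name, with earlier results of these data known, and all 10 were found in the tables. They are the prosurvival genes Bcl2, Bcl2l1 and Mcl1, the pore-forming effectors Bax and Bak1, the BH3-only genes Bbc3, Pmaip1 and Bcl2l11, and Trp53 with its regulator Mdm2. Single-cell transcripts were counted by Drop-seq, which captures the 3′ ends of polyadenylated RNA from dissociated cells in droplets and tags each molecule with a unique molecular identifier (UMI). The WT group held 5 untreated C57BL/6 pups whose cerebella were taken at P7. The other 10 animals were C57BL/6 mice of genotype Math1-Cre:SmoM2/EYFPloxP/loxP (M-Smo), whose tumors were taken at P15 after 3 daily intraperitoneal injections from P12 to P14 of vehicle (5 animals) or of 75 mg/kg vismodegib, a Smo inhibitor (5 animals). In M-Smo mice Cre is driven by a cloned Atoh1 (Math1) promoter, so that constitutively active SmoM2 arises in cells whose history includes Atoh1 expression, and other cells of the tumor carry the unrecombined allele. Tumor-bearing and WT animals differed in genotype, in age, in the injections (vehicle tumors received the solvent, WT none), in the droplet device and in the handling of reads (a human cell spike-in with selection of mouse barcodes and a second alignment for tumors only), and these cannot be told apart. Each library came from 1 animal, and the animal was the replicate in every test.

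In the intrinsic pathway of apoptosis, BAX and BAK1 permeabilize the outer mitochondrial membrane, BCL2, BCL-XL (the product of Bcl2l1) and MCL1 hold them in check, and BH3-only proteins such as PUMA (Bbc3), NOXA (Pmaip1) and BIM (Bcl2l11) tip the balance toward death. The transcription factor p53 induces Bbc3, Pmaip1, Bax and Mdm2 after DNA damage, and MDM2 in turn marks p53 for degradation. In cerebellar granule neuron progenitors (CGNPs), the known apoptotic response to DNA damage depends on p53 and Bax.

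After filtering, 37946 of 51841 barcodes were kept (7224 WT, 18293 vehicle and 12429 vismodegib), and the total UMIs in the table of each animal ran from 2310474 to 17708677. Cells of the granule lineage were grouped by marker genes into Node A-like (cycling, for example Mki67 and Top2a), Node B-like (Atoh1, Gli1, Ccnd1), Node C-like (Cntn2, Neurod1, Dcx) and Node D-like cells (Grin2b, Rbfox3, Snap25), which together are called CGNP-like. A tumor cluster of 671 vehicle and 635 vismodegib cells could not be named and was left out. None of the 10 members took part in the clustering or the naming. Node D-like cells made up 13.9% of WT, 4.23% of vehicle and 24.8% of vismodegib cells (means over animals), so a CGNP-like value also reflects the mix of stages. The SmoM2-EYFP transcript ran from 18.2 to 37.6 CPM (UMIs scaled to an equal total per animal and class) in CGNP-like cells of the 10 tumors, and 3 UMIs were found in all WT CGNP-like cells. All fixed markers of each stage were detected in each group. Immediate early and stress genes, a fixed list of markers of tissue handling, summed to 409 to 709 CPM in WT, 2438 to 3457 CPM in vehicle and 1233 to 2731 CPM in vismodegib CGNP-like cells. The mitochondrial share of UMIs averaged from 2.91% to 4.82% over the 4 stages of WT and from 1.73% to 2.57% over those of tumors. The part of the handling genes in the results was not tested, and the comparisons were also run in cells at or below the median mitochondrial share of their animal.

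The first question was how the death machinery is set as granule cells leave the cell cycle and differentiate, from Node A-like to Node C-like and Node D-like cells. From Node A-like to Node D-like cells Trp53 fell in each group. Bbc3 was higher at Node D in tumors, where it was testable through its level in the later stage alone. Bbc3 was not tested in WT, where it was higher in 5 of 5 animals. Bcl2l11 fell in vismodegib tumors. The mean level of Bcl2l1 was highest in Node C-like cells of each group, and that of Mcl1 lowest in Node D-like cells. Levels are CPM of the UMIs summed over all cells of a class in 1 animal, and differences are log2 fold changes from edgeR's quasi-likelihood test with the animal as a block, adjusted over all genes tested (Benjamini-Hochberg, threshold 0.05). The tests take the cell groups as given.

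**Figure D1:**
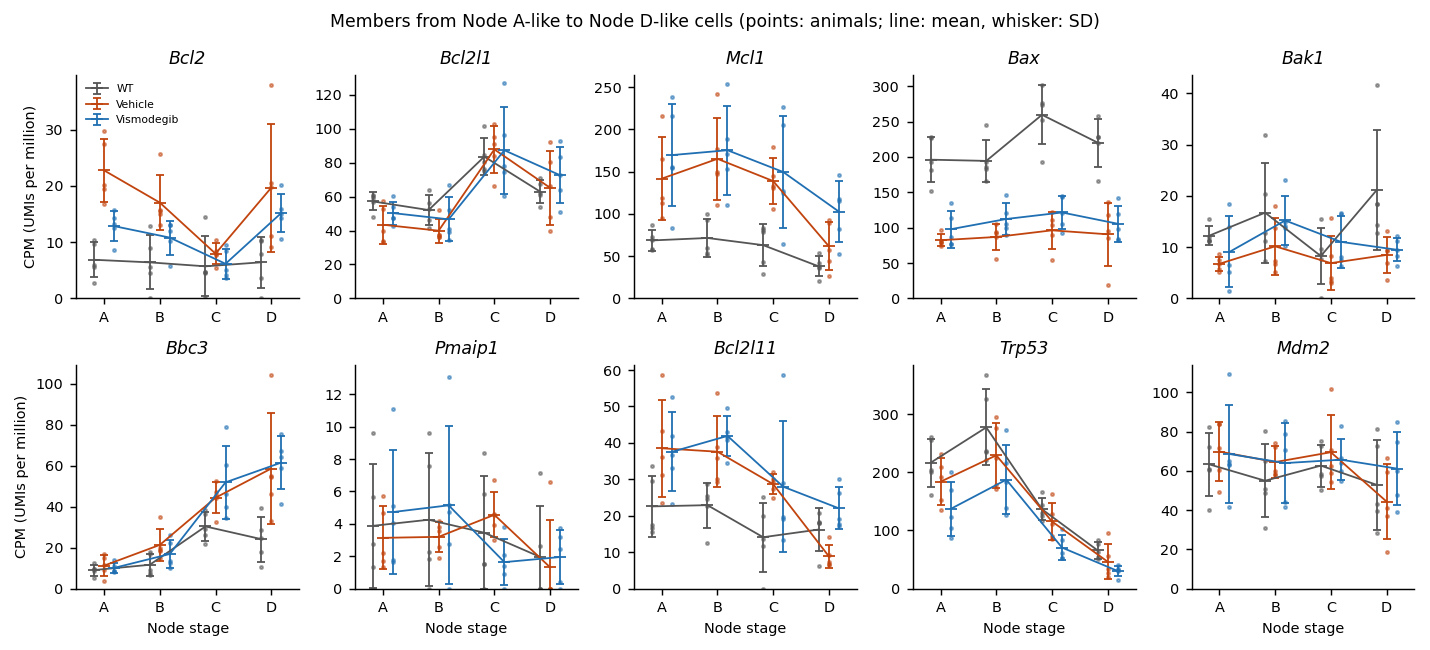
CPM (vertical axes, linear, from 0) of each member in Node A-like to Node D-like cells (horizontal axes) of WT, vehicle and vismodegib animals, with 1 point per animal, lines through the means and whiskers of 1 SD (n = 5 animals per group). Trp53 was lower in Node D-like than in Node A-like cells of all 15 animals and Bbc3 higher, and Bax of WT lay above both tumor groups at all 4 stages.

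Trp53 (chr11:69580359-69591873, plus strand, mm10) encodes p53 itself. In WT its level was 261, 255, 201, 204 and 161 CPM in Node A-like cells of animals 1 to 5 and 76.6, 50.1, 62.4, 84.0 and 55.1 CPM at Node D. The values of the stages did not overlap, and the fall held in 5 of 5 animals (log2 fold change -1.73 ± 0.17 (SE), adjusted p = 2.75e-12). In vehicle tumors Trp53 went from 135, 209, 152, 191 and 232 CPM in Node A-like to 55.3, 26.3, 20.5, 33.2 and 95.6 CPM in Node D-like cells, a change of -1.97 ± 0.21 (adjusted p = 1.8e-14). Trp53 rests on 3 to 26 UMIs per animal in the latter. In vismodegib tumors it went from 105, 87.6, 123, 169 and 200 CPM to 15.0, 30.2, 31.7, 33.8 and 40.1 CPM, a change of -2.25 ± 0.13 (adjusted p = 9.1e-24). The mean level was highest in Node B-like cells, at 278 CPM in WT, 229 CPM in vehicle and 187 CPM in vismodegib animals. Node C-like cells lay between Node A-like and Node D-like cells: the change from Node A-like cells was -0.73 ± 0.12 in WT, -0.76 ± 0.09 in vehicle and -1.02 ± 0.10 in vismodegib animals, past the threshold in each group and downward in 5 of 5 animals of each. Mdm2, which encodes the ubiquitin ligase that p53 induces and that limits p53, did not pass the threshold in WT or vismodegib animals. Its change from Node A-like to Node D-like cells was -0.25 ± 0.24 in WT and -0.12 ± 0.14 in vismodegib tumors. In vehicle tumors it was -0.58 ± 0.25 (adjusted p = 0.041), a call lost in 8 of 14 alternatives, among them leaving out vehicle animal 1, 3 or 5 (adjusted p = 0.146, 0.139 and 0.126).

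Bbc3 (chr7:16308393-16318205, plus strand) encodes PUMA, a BH3-only protein that binds all prosurvival family members. Vehicle tumors had 3.44, 11.6, 14.9, 16.9 and 9.15 CPM in Node A-like cells, 47.2, 45.5, 44.3, 52.6 and 32.3 CPM in Node C-like cells and 46.1, 32.9, 54.6, 104 and 55.1 CPM at Node D. The Node A-like values lay below all of the others, with log2 fold changes of 1.81 ± 0.18 to Node C-like (adjusted p = 3.5e-10) and 2.33 ± 0.30 to Node D-like cells (adjusted p = 6.0e-11). Vismodegib tumors had 8.73, 8.15, 13.9, 11.02 and 8.66 CPM in Node A-like against 67.4, 64.5, 41.2, 58.8 and 75.8 CPM in Node D-like cells (2.65 ± 0.19, adjusted p = 2.7e-19). In these tests Bbc3 passed the filter on low counts through its level in the later stage alone. Bbc3 had 3 to 54 UMIs per animal in Node A-like cells of vehicle and 5 to 27 in those of vismodegib tumors. In WT, Bbc3 did not pass the filter on low counts and was not tested: it was 9.33, 8.33, 5.16, 12.7 and 9.64 CPM in Node A-like and 17.9, 28.6, 10.4, 39.4 and 24.5 CPM in Node D-like cells, higher in 5 of 5 animals but with some overlap between the stages. In Node C-like cells of WT, Bbc3 was 36.5, 26.2, 38.2, 21.6 and 29.3 CPM, above all Node A-like values of WT. Bcl2l11, which encodes BIM, moved the other way in tumors. From Node A-like to Node D-like cells it changed by -2.01 ± 0.43 in vehicle (adjusted p = 3.6e-05) and by -0.72 ± 0.19 in vismodegib tumors (adjusted p = 0.00074), downward in 5 of 5 animals of each. In WT it was not tested, and Node D-like cells were higher than Node A-like cells in 3 of 5 animals. Node C-like cells of WT were lower in 5 of 5. The vehicle value rests on 1, 1, 1, 3 and 2 UMIs of Bcl2l11 in Node D-like cells of the 5 animals, against 51 to 138 in Node A-like cells, so that the gene passed the filter on low counts through its Node A-like level alone and the size of the fall is poorly known. That call was also lost at a Louvain resolution of 1.2 (-1.44, adjusted p = 0.053). Node D-like cells of vehicle tumors were few, with 108462 to 272015 UMIs per animal in all. The Node D-like values of Bcl2l11 were 9.22, 6.58, 6.83, 14.2 and 7.35 CPM in vehicle and 29.97, 26.2, 19.0, 17.8 and 17.1 CPM in vismodegib tumors (6 to 49 UMIs), and the difference between treatments at this stage was not tested because the gene did not pass the filter there. In Node C-like cells Bcl2l11 passed the threshold in vismodegib tumors (-0.59 ± 0.19, adjusted p = 0.00555), but not without vismodegib animal 5 (-0.35, adjusted p = 0.14) and in 2 other alternatives. Pmaip1, which encodes NOXA, did not exceed 13.1 CPM in any stage of any animal and passed the filter in no comparison of stages.

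Among the prosurvival genes, Bcl2l1 rose at Node C. In vehicle tumors it was 52.8, 39.8, 57.6, 33.8 and 33.2 CPM in Node A-like and 103, 91.1, 95.1, 66.5 and 84.1 CPM in Node C-like cells, without overlap (1.01 ± 0.11, adjusted p = 2.5e-09). Node C-like cells were higher in 5 of 5 animals of each group, by 0.80 ± 0.12 in vismodegib (adjusted p = 1.6e-07) and 0.55 ± 0.18 in WT animals (adjusted p = 0.0061). The WT call was lost without WT animal 1 (0.42, adjusted p = 0.12) and under DESeq2 (adjusted p = 0.10). From Node A-like to Node D-like cells the changes were 0.65 ± 0.13 in vismodegib tumors (adjusted p = 1.8e-05), 0.62 ± 0.25 in vehicle tumors (adjusted p = 0.026) and 0.07 ± 0.22 in WT (adjusted p = 0.82). The vehicle value lost its call in 6 of 14 alternatives, including the omission of vehicle animal 1, 4 or 5 (adjusted p = 0.081, 0.18 and 0.18). Mcl1, a short-lived prosurvival protein, was lower in Node D-like than in Node A-like cells in 5 of 5 animals of each group, by -0.72 ± 0.24 in WT (adjusted p = 0.0093, but 0.080 in cells with at least 1000 UMIs), -1.25 ± 0.20 in vehicle (adjusted p = 1.0e-07) and -0.76 ± 0.11 in vismodegib animals (adjusted p = 7.0e-09). The vehicle Node D-like values of Mcl1 rest on 4 to 13 UMIs per animal. Between Node A-like and Node C-like cells Mcl1 changed by -0.01 ± 0.19 in WT, by -0.05 ± 0.09 in vehicle and by -0.30 ± 0.09 in vismodegib tumors, only the last past the threshold (adjusted p = 0.0027). Bcl2 itself was lower in Node C-like than in Node A-like cells of vehicle tumors (-1.56 ± 0.23, adjusted p = 3.95e-07), with 27.5, 20.1, 29.8, 16.9 and 19.5 CPM in Node A-like and 8.43, 5.31, 10.4, 7.93 and 7.69 CPM in Node C-like cells (5 to 15 UMIs). Bcl2 passed the filter in this comparison through its Node A-like level alone. It was also lower in 5 of 5 vismodegib tumors, where it did not pass the filter, and in Node D-like vehicle cells it spread from 9.22 to 37.9 CPM (-0.15 ± 0.38 against Node A-like cells).

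The effector Bax rose from Node A-like to Node C-like cells in 5 of 5 WT animals (0.40 ± 0.10, adjusted p = 0.00050), and changed by 0.21 ± 0.10 in both tumor groups (adjusted p = 0.073 in vehicle and 0.057 in vismodegib). From Node A-like to Node D-like cells it changed by 0.14 ± 0.13 in WT, 0.18 ± 0.20 in vehicle and 0.00 ± 0.11 in vismodegib animals, none past the threshold. Bak1 did not pass the filter in any comparison of stages within a group, with 0 to 41.6 CPM in single stages.

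The share of members called lay on both sides of the share among all genes. From Node A-like to Node C-like cells, 3 of 5 members tested passed the threshold in WT (51.2% of all genes tested did), 4 of 8 in vehicle (63.1%) and 5 of 7 in vismodegib tumors (69.0%). From Node A-like to Node D-like cells it was 2 of 5 in WT (56.8%), 6 of 8 in vehicle (58.8%) and 5 of 8 in vismodegib tumors (74.0%). The tumor counts include Bbc3, which was testable through its level in the later stage alone. The vehicle counts also include members testable through their Node A-like level alone, Bcl2 at Node C and Bcl2l11 at Node D. The vehicle count at Node D further holds the calls of Mdm2 and Bcl2l1 that single animals end. Nothing is read from the tumor counts.

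Other genes of the pathway, listed by their known function, were taken in the same comparison of Node D-like with Node A-like cells, to be read against the shares of all genes just given. List genes with large changes may have been testable through the stage of their higher level alone. The sizes of such folds are poorly known, and the counts of the lists include any such genes. Of 9 p53 regulators tested in vehicle tumors 1 was higher and 4 were lower, and of 9 in vismodegib tumors 1 was higher and 5 were lower. The checkpoint kinase genes Chek1 (-2.96 ± 0.45) and Chek2 (-3.49 ± 0.50) fell in vehicle tumors, as did Atm (-1.25 ± 0.35). Of 12 caspase cascade genes tested in vismodegib tumors 3 were higher and 5 were lower (3 and 2 of 10 in vehicle, 1 and 2 of 6 in WT). Of the calls in these lists, that of Xiap, the higher gene in WT, was lost without WT animal 1 or 4, that of Dffb in vehicle tumors without vehicle animal 1 or 5, and that of Usp7, the higher p53 regulator in vehicle tumors, without vehicle animal 2. The DNA fragmentation genes Dffa and Dffb rose in vismodegib tumors (0.93 ± 0.22 and 0.79 ± 0.23). Diablo, whose product relieves caspase inhibition, and Aifm1, a mitochondrial oxidoreductase, fell in all 3 groups (Aifm1 by -1.17 ± 0.29 and Diablo by -1.12 ± 0.19 in WT), although the Diablo call in vehicle tumors was lost without vehicle animal 4 (adjusted p = 0.061). Of the other effectors and BH3-only genes, 5 of 6 tested rose in vismodegib tumors and 1 fell: Bnip3 rose by 2.67 ± 0.21 and Hrk, a BH3-only gene of neurons, by 2.50 ± 0.26, while Bok, a further pore-forming relative, fell (-2.70 ± 0.13). The p53 target genes were split, with 3 higher and 1 lower of 6 tested in WT, 4 and 2 of 12 in vehicle, and 5 and 6 of 16 in vismodegib tumors. The WT and vehicle counts depend on single animals, and DESeq2 called 1 gene in each. In WT the call of Tigar, the lower gene (listed in these tables as 9630033F20Rik), was lost in 9 of 14 alternatives, among them without WT animal 1, 2, 4 or 5, that of Ei24 without WT animal 2 or 4 and that of Xpc without WT animal 2 or 5. In vehicle tumors the call of Tigar was lost without vehicle animal 1, 2, 3 or 4, that of Sesn1 without 3 or 5, that of Ccng1 without 4 and that of Rrm2b without 5. The cell cycle inhibitor Cdkn1a rose in WT (1.41 ± 0.21), Plk2 (2.88 ± 0.23) and the repair gene Ddb2 (2.54 ± 0.27) rose in vismodegib tumors, and the death receptor gene Eda2r fell there (-3.34 ± 0.43). The handling list had 2 higher and 0 lower of 5 tested in WT, 5 and 0 of 7 in vehicle and 2 and 2 of 8 in vismodegib tumors. Both WT calls were lost in several alternatives, Egr1 in 7 of 14 (among them without WT animal 2 or 5) and Ier2 in 6 of 14 (among them without WT animal 1 or 2), and the Egr1 call in vismodegib tumors was lost in 5 of 14 (among them without vismodegib animal 1 or 2).

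The comparison of vehicle-treated tumors with P7 cerebellum asked how the same lineage differs in the tumor. Bax was lower in tumor CGNP-like cells than in WT, and Mcl1 and Bcl2 were higher, without overlap between the animals of the groups. Bcl2l11 was also higher and Bcl2l1 slightly lower, whereas Trp53, Mdm2, Bbc3 and Pmaip1 did not pass the threshold. In CGNP-like cells 5 of 10 members passed it, against 44.8% of all genes tested, and the median log2 fold change was -0.0034 over members and 0.047 over all genes.

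**Figure D2:**
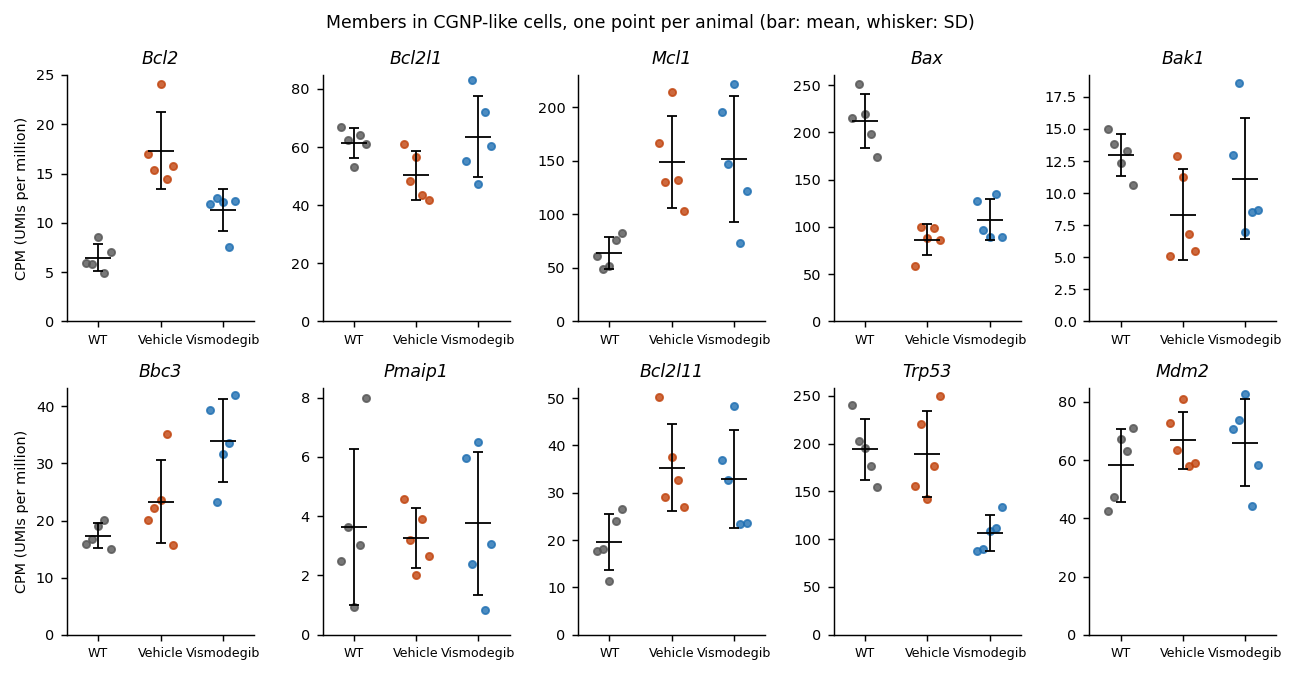
CPM (vertical axes, linear, from 0) of each member in CGNP-like cells of WT, vehicle and vismodegib animals, with 1 point per animal, bars at the means and whiskers of 1 SD (n = 5 per group). WT animals lie above all tumors for Bax and below all vehicle tumors for Bcl2 and Mcl1, and vismodegib tumors lie below all vehicle tumors for Trp53 and Bcl2.

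Bax (chr7:45461697-45466898, minus strand, mm10) was 215, 252, 219, 198 and 174 CPM in WT animals 1 to 5 and 58.9, 100, 88.6, 98.6 and 86.4 CPM in vehicle animals. The lowest WT animal lay well above the highest vehicle animal (log2 fold change -1.37 ± 0.16, 0.387-fold, adjusted p = 1.3e-05). The difference recurred at each stage from Node A to Node D, at -1.35 ± 0.16, -1.33 ± 0.18, -1.57 ± 0.19 and -1.28 ± 0.26 in that order, each past the threshold, and also in cells of low mitochondrial share (-1.16 to -1.66). In counts thinned to the smallest total the Node A-like value was -1.22 ± 0.63 and lost its call (adjusted p = 0.363). The model gene Gm45808 overlaps Bax on the same strand in the annotation, so that reads of the pair could be shared. Bak1, the second effector, was 15.0, 13.8, 12.3, 13.3 and 10.6 CPM in WT and 5.07, 12.9, 11.3, 6.79 and 5.50 CPM in vehicle animals. The groups overlapped, and the value missed the threshold (-0.75 ± 0.30, adjusted p = 0.052). It passed without vehicle animal 2 (-0.94, adjusted p = 0.020), without vehicle animal 3 (-0.86, adjusted p = 0.035) and under DESeq2 (adjusted p = 0.044). In Node A-like cells Bak1 passed (-0.92 ± 0.34, adjusted p = 0.044), but lost the call in 9 of 14 alternatives, among them without WT animal 2, 3, 4 or 5 or vehicle animal 1 (adjusted p = 0.067 to 0.0897). It was testable there through its WT level alone (3 to 17 UMIs per animal). Ggnbp1 overlaps Bak1 on the opposite strand and stood at 4.36 to 9.53 CPM in these cells.

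Mcl1 (chr3:95658788-95663176, plus strand) was 60.8, 48.7, 52.2, 75.7 and 82.3 CPM in WT and 167, 130, 215, 132 and 103 CPM in vehicle animals. All vehicle animals exceeded all WT animals (1.12 ± 0.20, 2.18-fold, adjusted p = 0.00041), and the difference held in Node A-like (0.92 ± 0.23), Node B-like (1.03 ± 0.23) and Node C-like cells (0.92 ± 0.24). In thinned counts the stage values were 0.57 ± 0.70, 0.72 ± 0.42 and 1.19 ± 0.57, and none of them passed edgeR's threshold (adjusted p = 0.782, 0.346 and 0.202). Bcl2 (chr1:106538178-106714274, minus strand) was 5.92, 5.82, 8.54, 4.94 and 7.08 CPM in WT and 17.0, 15.3, 24.1, 14.4 and 15.8 CPM in vehicle animals. The groups were again apart (1.38 ± 0.26, 2.60-fold, adjusted p = 0.00051), with 8 to 19 UMIs in WT and 67 to 238 in vehicle animals. In counts thinned to the smallest total Bcl2 did not pass the filter and was not tested. Mir3473f and Gm37053 overlap Bcl2 on the same strand and D630008O14Rik on the other, so that reads could be shared. Single stages of WT hold few UMIs, 9, 2, 2, 2 and 4 in Node A-like and 3, 0, 5, 5 and 4 in Node B-like cells, and Bcl2 passed the filter there through its vehicle level alone. The fitted values were 1.76 ± 0.37 (adjusted p = 0.00098) and 1.27 ± 0.44 (adjusted p = 0.030), the latter a call lost without WT animal 1, 2 or 4 or vehicle animal 3 (adjusted p = 0.070, 0.054, 0.071 and 0.059). Bcl2l1 was 66.7, 62.5, 53.1, 64.3 and 61.1 CPM in WT and 61.1, 48.5, 56.4, 43.4 and 41.8 CPM in vehicle animals, overlapping at 2 vehicle animals. Its difference of -0.39 ± 0.14 (adjusted p = 0.037) lost the call in 11 of 23 alternatives, among them without WT animal 1, 2, 4 or 5 or vehicle animal 2, 4 or 5 (adjusted p = 0.057 to 0.13), and with each stage weighted equally (-0.11, exact permutation p = 0.32).

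Of the BH3-only genes, Bcl2l11 was 17.8, 18.2, 11.4, 24.0 and 26.6 CPM in WT and 50.2, 29.1, 37.6, 32.7 and 27.0 CPM in vehicle animals. The lowest vehicle animal just exceeded the highest WT animal (0.74 ± 0.23, 1.67-fold, adjusted p = 0.015). The call was lost in thinned counts (0.54 ± 0.40, adjusted p = 0.366). No single stage passed the threshold, with values of 0.55 to 0.76 in Node A-like, Node B-like and Node C-like cells. In cells of low mitochondrial share the Node A-like value passed (0.84 ± 0.32, adjusted p = 0.0487). Bbc3 was 15.9, 16.7, 19.0, 20.2 and 15.1 CPM in WT and 20.04, 22.1, 23.6, 35.2 and 15.7 CPM in vehicle animals, which overlap (0.34 ± 0.24, adjusted p = 0.28). With each stage weighted equally, so that the smaller share of Node D-like cells in vehicle tumors did not enter, Bbc3 was 18.8 ± 2.16 CPM in WT and 33.9 ± 10.5 CPM in vehicle animals (SD, n = 5), without overlap (exact two-sided permutation p = 0.0079, the smallest that 5 against 5 allows). Bbc3 was called at no stage where it was tested, it was not tested at Node D, and the groups overlapped at each of the 4 stages. Its Node D-like values in vehicle tumors rest on 5 to 22 UMIs per animal. Pmaip1 averaged 3.62 CPM in WT and 3.26 CPM in vehicle animals (-0.17 ± 0.42). Trp53 was 241, 203, 195, 176 and 155 CPM in WT and 156, 220, 142, 177 and 250 CPM in vehicle animals, with overlap (-0.12 ± 0.17, 95% interval -0.45 to 0.21). Mdm2 spanned 42.4 to 70.8 CPM in WT and 57.9 to 81.0 CPM in vehicle animals (0.11 ± 0.18, interval -0.24 to 0.47).

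Within stages the members called from Node A to Node D were 4 of 9 tested (33.5% of all genes), 4 of 9 (36.7%), 2 of 7 (29.6%) and 1 of 3 (28.7%). The first 2 counts include Bcl2, which was testable there through its vehicle level alone. The first also includes Bak1, testable through its WT level alone, so nothing is read from these 2 counts. Bax was called in all 4 stages and Mcl1 in the 3 where it was tested. Bcl2l1 was called in Node B-like cells (-0.55 ± 0.19, adjusted p = 0.028), but not in 10 of 22 alternatives, among them without WT animal 1, 4 or 5 or vehicle animal 2, 4 or 5 (adjusted p = 0.0596 to 0.0754).

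The lists around the members are to be read against the 44.8% of all genes called between vehicle tumors and WT. Of 7 other effectors and BH3-only genes tested in CGNP-like cells 2 were higher (Hrk by 4.46 ± 0.49 and Bad by 0.82 ± 0.21) and 2 lower (Bnip3 by -1.58 ± 0.28 and Bnip3l by -0.70 ± 0.16). Hrk may have been testable through its vehicle level alone, so the size of its fold is poorly known. Bcl2l2, the 1 other prosurvival gene tested, was higher (0.64 ± 0.20). Of 15 caspase cascade genes 3 were higher and 2 lower: Apaf1, the core of the apoptosome, rose by 1.06 ± 0.22 and Cycs, which encodes cytochrome c, fell (-1.34 ± 0.25). The call of Birc2 was lost without WT animal 2, 3 or 4 or vehicle animal 1, 2 or 3, and that of Htra2 without WT animal 4 or 5 or vehicle animal 5. Of 9 p53 regulators 3 were higher and 1 lower, among them Usp7, a deubiquitinase acting on MDM2 and p53 (0.92 ± 0.18), and Ppm1d, the phosphatase that restrains p53 signaling (-0.65 ± 0.17), while the call of Atm was lost without WT animal 1, 3, 4 or 5 or vehicle animal 3, 4 or 5. Of 18 p53 targets 5 were higher and 1 lower, led by Btg2 (1.97 ± 0.24) and Gadd45a (1.23 ± 0.23), with Plk2 lower (-1.17 ± 0.33). Btg2 and Gadd45a are also induced by stress without p53. The handling list stood out beside these, with 9 of 10 genes higher and 0 lower and a median of 1.69, and its part in them was not tested. Jun was 148 to 199 CPM in WT and 1013 to 1438 CPM in vehicle animals.

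**Figure D3:**
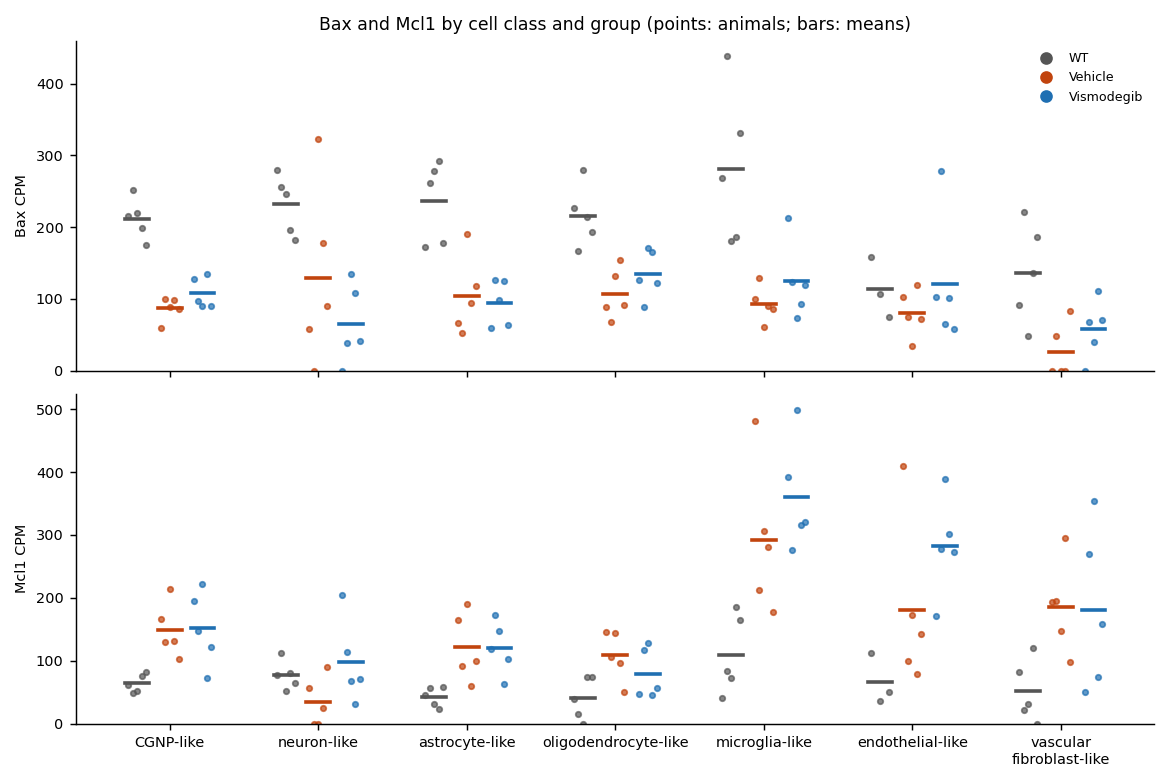
CPM (vertical axes, linear, from 0) of Bax and Mcl1 in CGNP-like cells and 6 other classes (horizontal axis) of WT, vehicle and vismodegib animals with at least 5 cells of the class, with 1 point per animal and bars at the means. In astrocyte-like cells WT animals averaged 236 CPM Bax and vehicle animals 104 CPM, a contrast of the same direction as in CGNP-like cells.

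Outside CGNP-like cells, Bax of WT and vehicle animals lay apart in microglia-like and oligodendrocyte-like cells, and Mcl1 in astrocyte-like cells, as the plot of Bax and Mcl1 by class shows. The paper traced some astrocytic and oligodendrocytic cells of these tumors to Math1-Cre-expressing predecessors. The glial classes of the tumors may thus hold tumor-derived cells. In astrocyte-like cells, Bax was 172, 261, 278, 292 and 177 CPM in WT and 66.1, 52.7, 190, 94.6 and 118 CPM in vehicle animals, with 1 vehicle animal among the WT values. In microglia-like cells, which are not of the Atoh1 lineage, Bax was 269, 438, 180, 186 and 331 CPM in WT and 100, 129, 61.1, 89.4 and 85.2 CPM in vehicle animals, without overlap. Oligodendrocyte-like cells did not overlap either, with 166 to 280 CPM in WT and 67.7 to 154 CPM in vehicle animals. Mcl1 ran the other way in the same classes, from 41.4 to 186 CPM in WT and from 178 to 481 CPM in vehicle microglia-like cells, overlapping at 1 animal, and from 23.8 to 59.0 CPM against 60.2 to 190 CPM in astrocyte-like cells. In oligodendrocyte-like cells Mcl1 was 0 to 74.9 CPM in WT and 50.0 to 145 CPM in vehicle animals, with overlap. Bax overlapped in endothelial-like cells, at 74.4 to 158 CPM in WT and 34.5 to 119 CPM in vehicle animals. These values are a description without a test. Some WT classes were small (96 microglia-like cells in all 5 animals), and in tumors the neuron-like class lacked UMIs of Gad1. Vehicle classes were small too: in vehicle animal 3 Bax rests on 1 UMI in 6 microglia-like cells and on 4 UMIs in 7 astrocyte-like cells.

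The comparison of vismodegib with vehicle asked what Smo inhibition did to the same genes. In CGNP-like cells Trp53 fell, to 0.565 of the vehicle level, and was the 1 of 10 members past the threshold, against 12.8% of all genes tested (1586 of 12371). Bcl2 was lower in all vismodegib animals than in any vehicle animal but missed the threshold. The other 8 members did not pass it, and the median log2 fold change was 0.039 over members and 0.0046 over all genes.

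**Figure D4:**
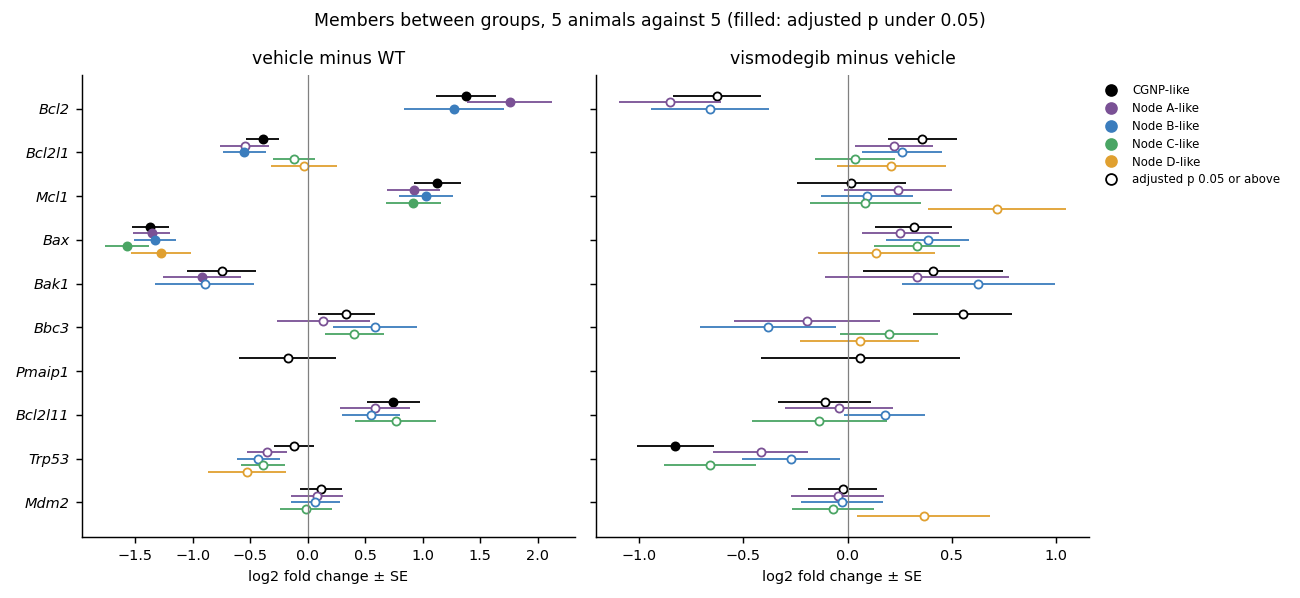
Log2 fold changes (horizontal axes) with SE of the members between vehicle and WT (left) and between vismodegib and vehicle (right), in CGNP-like cells and in each stage where the gene was tested, 5 animals against 5. Filled points passed an adjusted p of 0.05: Bax does so in all 5 rows on the left, and Trp53 in CGNP-like cells alone on the right.

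Trp53 was 156, 220, 142, 177 and 250 CPM in vehicle animals 1 to 5 and 87.6, 89.5, 109, 112 and 133 CPM in vismodegib animals 1 to 5. No vismodegib animal reached the lowest vehicle animal (-0.82 ± 0.18, adjusted p = 0.0089). Vismodegib tumors also held more Node D-like cells, in which Trp53 was low in all groups. Within stages the difference was -0.42 ± 0.23 in Node A-like (adjusted p = 0.53), -0.27 ± 0.23 in Node B-like (adjusted p = 0.65) and -0.66 ± 0.22 in Node C-like cells (adjusted p = 0.18), and in Node D-like cells the gene did not pass the filter. With each stage weighted equally, Trp53 was 144 ± 35.4 CPM in vehicle and 106 ± 33.4 CPM in vismodegib animals, which overlap (log2 ratio -0.44, exact two-sided permutation p = 0.12). Mdm2 did not pass the threshold and was 72.6, 63.5, 81.0, 57.9 and 59.0 CPM in vehicle and 70.7, 73.9, 82.8, 44.3 and 58.1 CPM in vismodegib animals (-0.02 ± 0.16, interval -0.35 to 0.30).

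Bcl2 was 17.0, 15.3, 24.1, 14.4 and 15.8 CPM in vehicle and 11.9, 12.6, 12.1, 7.505 and 12.2 CPM in vismodegib animals. The groups did not overlap, but the fit gave -0.63 ± 0.21 with an adjusted p of 0.069. The direction was the same in Node A-like (-0.85 ± 0.25, adjusted p = 0.099) and Node B-like cells (-0.66 ± 0.28, adjusted p = 0.27). With equal weight per stage the means were 16.9 ± 3.34 and 11.2 ± 2.37 CPM, without overlap (exact two-sided permutation p = 0.0079), and DESeq2 called the CGNP-like difference (-0.65, adjusted p = 0.029). Bcl2l1 was 61.1, 48.5, 56.4, 43.4 and 41.8 CPM in vehicle and 55.3, 82.9, 47.4, 72.1 and 60.4 CPM in vismodegib animals, with overlap (0.36 ± 0.17, adjusted p = 0.20). Mcl1 spread more within than between the groups, at 103 to 215 CPM in vehicle and 72.8 to 222 CPM in vismodegib animals (0.02 ± 0.26, interval -0.49 to 0.53).

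Bax was 127, 97.2, 89.8, 134 and 89.7 CPM in vismodegib animals, overlapping the vehicle animals (0.32 ± 0.19, adjusted p = 0.32, interval -0.05 to 0.68), and every vismodegib animal lay below the lowest WT animal. Bak1 differed by 0.41 ± 0.34 (adjusted p = 0.50). Bbc3 was 20.04, 22.1, 23.6, 35.2 and 15.7 CPM in vehicle and 39.3, 23.3, 31.6, 33.7 and 41.9 CPM in vismodegib animals. It missed the threshold (0.55 ± 0.24, adjusted p = 0.16) and passed it without vehicle animal 4 (0.77, adjusted p = 0.034). Within stages the Bbc3 differences were of both signs, from -0.38 to 0.20, and with equal weight per stage the group means were 33.9 ± 10.5 CPM in vehicle and 35.1 ± 6.28 CPM in vismodegib animals (exact permutation p = 0.78). Bcl2l11 (-0.11 ± 0.22) and Pmaip1 (0.06 ± 0.48) did not pass either.

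At each single stage 0 members passed edgeR's threshold, where 2.21%, 3.05%, 1.65% and 0.0733% of all genes did from Node A to Node D. At an unadjusted p under 0.05 there was 1 member at each stage (Bcl2 in Node A-like and Node B-like, Trp53 in Node C-like and Mcl1 in Node D-like cells), of 9, 9, 7 and 5 tested. Of all genes, 1197 of 9961, 1552 of 9985, 1139 of 8870 and 346 of 5460 were under it, so nothing is read from these counts. DESeq2 also called 0 members. The change from Node A-like to Node C-like cells was compared between treatments by an interaction term, and 0 of 9 members passed (5.00% of all genes). Of the members 0 had an unadjusted p under 0.05 (1766 of 10259 genes did), and DESeq2 called 0. Trp53 had an interaction of -0.25 ± 0.14 (adjusted p = 0.37) and Mcl1 of -0.24 ± 0.12 (adjusted p = 0.30). Outside CGNP-like cells few members could be tested: Mcl1 alone in astrocyte-like and microglia-like cells (2.06% and 0.313% of all genes called), and Bax, Mcl1 and Mdm2 in oligodendrocyte-like cells (5.30%). By edgeR 0 passed, 0 had an unadjusted p under 0.05 and DESeq2 called 0, with log2 fold changes from -0.50 to 0.59. Of all genes, 273 of 1891, 182 of 1599 and 469 of 2738 had an unadjusted p under 0.05 in these 3 classes, in that order.

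Other genes of the pathway are to be read against the 12.8% of all genes called with vismodegib, and against 3152 of 12371 genes with an unadjusted p under 0.05. In CGNP-like cells 0 of 15 caspase cascade genes passed edgeR's threshold (2 had an unadjusted p under 0.05 and DESeq2 called 0), and 0 of 9 p53 regulators did (1 had an unadjusted p under 0.05 and DESeq2 called 1). The prosurvival gene Bcl2l2 did not pass either (0.02). Of 7 other effectors and BH3-only genes 2 fell, Bok from 172 ± 29.8 to 104 ± 8.62 CPM (SD, n = 5; -0.73 ± 0.13, adjusted p = 0.0024) and Hrk from 47.2 ± 29.1 to 17.1 ± 7.49 CPM (-1.38 ± 0.38, adjusted p = 0.030). Hrk fell within Node A-like (-2.38 ± 0.47), Node B-like (-2.73 ± 0.47) and Node C-like cells (-1.81 ± 0.44), and Bok within Node C-like cells (-0.94 ± 0.23). The Hrk call in CGNP-like cells was lost without vehicle animal 1 or 3 or vismodegib animal 1, 2, 3 or 4 (log2 fold changes from -1.03 to -1.38). At Node C both calls changed when single animals were left out: that of Hrk was lost in 12 of 23 alternatives, among them without vehicle animal 1 or 5 or any 1 vismodegib animal (adjusted p = 0.062 to 0.134), and that of Bok in 11 of 23, among them without any 1 animal but vehicle animal 3 and vismodegib animal 1 (adjusted p = 0.0587 to 0.134). Of 18 p53 targets 2 rose and 1 fell. Plk2 rose from 3.76 ± 0.71 to 12.9 ± 6.98 CPM (1.84 ± 0.38, adjusted p = 0.0058) and Tigar by 0.63 ± 0.19 (adjusted p = 0.044). Eda2r fell (-0.79 ± 0.24, adjusted p = 0.041). The Tigar call was lost in 11 of 23 alternatives, among them without vehicle animal 2, 4 or 5 or vismodegib animal 1, 2 or 4 (adjusted p = 0.088 to 0.11). The Eda2r call was lost in 9 of 23, among them without vehicle animal 1, 3 or 4 or vismodegib animal 1, 4 or 5 (adjusted p = 0.0601 to 0.109). Tigar also rose within Node A-like (0.97 ± 0.18) and Node B-like cells (1.08 ± 0.21). In Node B-like cells the nuclease gene Dffb fell (-0.99 ± 0.22, adjusted p = 0.022), a call lost without vehicle animal 2 or 5 or vismodegib animal 1, 4 or 5 (adjusted p = 0.053 to 0.0654). Of 10 handling genes 1 fell in CGNP-like cells (Fos, -0.84 ± 0.26), with a list median of -0.48, and the Fos call was lost without any 1 animal but vehicle animal 1 and vismodegib animal 1 (adjusted p = 0.0563 to 0.136).

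Members also differed between cell classes within the tumors. Against CGNP-like cells of the same 10 animals, Trp53 was lower in each of 5 other classes and Bak1 higher in 4 of them, Bcl2 was high in astrocyte-like and vascular cells, and Mcl1 was high in microglia-like cells. Between 4 and 5 members passed the threshold in each class, where 44.5% to 57.3% of all genes did. Some of them were testable through their CGNP-like level alone, so nothing is read from these counts. The handling list was higher for 8 of 10 genes tested in astrocyte-like and 9 of 10 in microglia-like cells, and its part in these values was not tested.

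**Figure D5:**
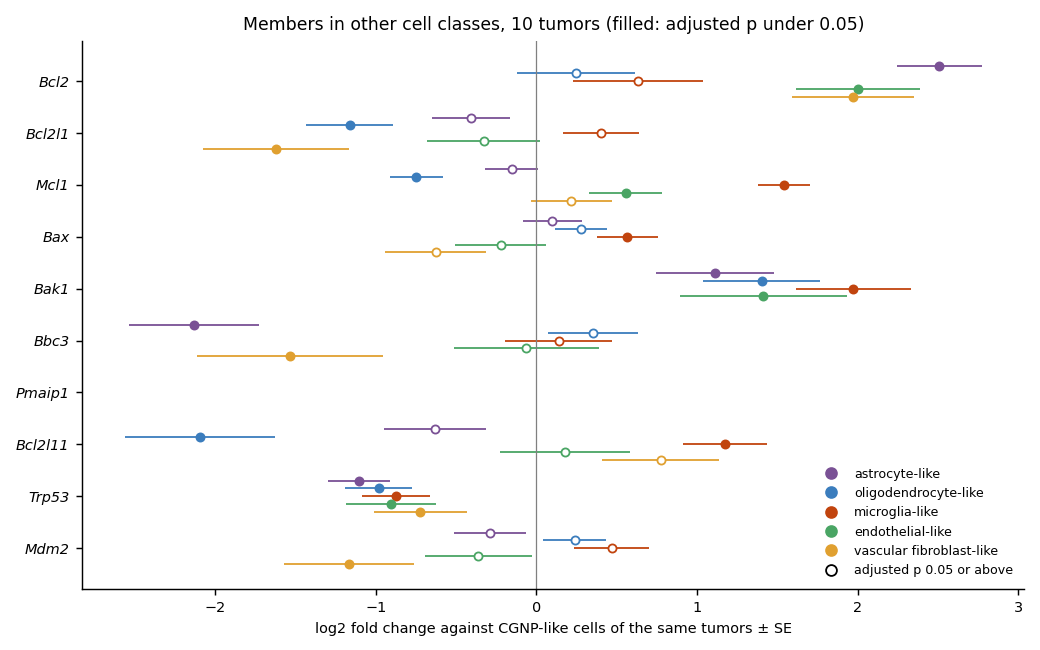
Log2 fold changes (horizontal axis) with SE of the members in 5 other cell classes against CGNP-like cells of the same 10 tumors, fitted with the animal as a block. Filled points passed an adjusted p of 0.05: Trp53 lies to the left of 0 in all 5 classes, and Bcl2 near 2 to 2.5 in astrocyte-like, endothelial-like and vascular fibroblast-like cells.

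In astrocyte-like cells 4 of 9 members tested were called (52.7% of all genes). Bcl2 was 0, 105, 190, 120 and 36.8 CPM in vehicle and 59.4, 80.5, 98.1, 62.5 and 38.5 CPM in vismodegib animals, above the CGNP-like cells of the same animal in 9 of 10 (2.51 ± 0.26, adjusted p = 6.8e-12). Bbc3 was lower there, with 1 UMI in 624217 vehicle UMIs and 12 in 1349047 vismodegib UMIs (-2.13 ± 0.41, adjusted p = 1.3e-05). It passed the filter through its CGNP-like level (68 to 315 UMIs) alone, so the size of this fold is poorly known. Bak1 was higher (1.11 ± 0.37, adjusted p = 0.0093), though not without vismodegib animal 4 (0.81, adjusted p = 0.12), and Trp53 lower (-1.10 ± 0.19).

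In microglia-like cells 5 of 9 were called (57.3%). Mcl1 was 481, 212, 306, 281 and 178 CPM in vehicle and 392, 276, 499, 317 and 321 CPM in vismodegib animals, above the CGNP-like cells in 10 of 10 animals (1.54 ± 0.16, 2.91-fold, adjusted p = 2.9e-17). Bak1 (1.97 ± 0.36) and Bcl2l11 (1.17 ± 0.26) were higher and Trp53 lower (-0.87 ± 0.21). Bax was higher by 0.57 ± 0.19 (adjusted p = 0.0078), a call lost without vismodegib animal 5 (0.47, adjusted p = 0.054), without the filter on low counts, under DESeq2 and under RLE scaling, which moved the median of all genes by -0.196.

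In oligodendrocyte-like cells 5 of 9 were called (44.5%): Bcl2l11 (-2.10 ± 0.47), Bcl2l1 (-1.16 ± 0.27), Mcl1 (-0.75 ± 0.17) and Trp53 (-0.98 ± 0.21) were lower and Bak1 higher (1.40 ± 0.37). These rest on 0 to 4 UMIs of Bcl2l11, 0 to 9 of Bcl2l1 and 0 to 6 of Bak1 per animal, and the first passed the filter through its CGNP-like level (74 to 407 UMIs) alone. In endothelial-like cells 4 of 9 were called (46.4%), with Bcl2 (2.00 ± 0.39), Bak1 (1.41 ± 0.52) and Mcl1 (0.56 ± 0.23) higher and Trp53 lower (-0.91 ± 0.28), with 0 to 9 UMIs of Bcl2 and 0 to 4 of Bak1 per animal. Without vismodegib animal 5 the endothelial-like calls were 2, as Bak1 and Mcl1 lost theirs (adjusted p = 0.081 and 0.14), and Mcl1 also lost its call without vismodegib animal 3 or 4 (adjusted p = 0.058 and 0.20). In vascular fibroblast-like cells 5 of 8 were called (45.8%), with Bcl2 higher (1.97 ± 0.38) and Bcl2l1 (-1.62 ± 0.46), Bbc3 (-1.53 ± 0.58), Mdm2 (-1.17 ± 0.40) and Trp53 (-0.72 ± 0.29) lower. The animals held 0 to 4 UMIs of Bcl2l1 and 0 to 3 of Bbc3 and of Mdm2 in this class, so the sizes of these folds are poorly known, and Bcl2l1 and Bbc3 passed the filter through their CGNP-like level alone. Bbc3 lost the call without vismodegib animal 4 or 5 (adjusted p = 0.052 and 0.058), and Trp53 without vehicle animal 2, 3 or 4 or vismodegib animal 3 or 5 (adjusted p = 0.051 to 0.080). The median log2 fold change of all genes was below 0 in each class, from -0.47 in endothelial-like to -0.13 in oligodendrocyte-like cells, and that of the members tested ran from -0.68 in vascular fibroblast-like to 0.57 in microglia-like cells.

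Over 32 means by class and group, the genes whose levels followed a member most closely were found for the 6 members with a median of at least 20 CPM, by Pearson's r of log2(CPM + 10). For Bax they were Atp6v1g1 (r = 0.89), Cfl1 (0.87) and Mrpl22 (0.84), and for Mcl1 Dazap2 (0.84), Rnf169 (0.83) and Ubn1 (0.82). Trp53 was followed by the ribosomal protein genes Rpl7 (0.92), Rplp0 (0.89) and Rps15 (0.89). For Bcl2l11 they were Kdm2a (0.77), Nfe2l2 (0.73) and Zscan29 (0.72), for Bcl2l1 Peli2 (0.75), Vash1 (0.74) and Lzts1 (0.73), and for Mdm2 Wdr55 (0.71), Ddx21 (0.70) and Tle4 (0.69). Among members, Mcl1 and Bcl2l11 had r = 0.63 and Bax and Mcl1 had r = -0.55. The points share animals, depth and base composition, and the values are a description.

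Promoter sequence was set beside these values because p53 binds DNA directly at several members. In windows of 300 bases around the start sites of RefSeq promoters (build GRCm38.p6), the half-site of the p53 motif, searched by name on both strands, was found in 3 of 14 promoters of 9 members, in those of Bax, Mdm2 and Trp53, and in 8.36% of 32851 promoters of all genes. A pair of half-sites in tandem was found in 0 of the 14 and in 0.073% of all. Sites outside these windows or with letters that depart from the motif were not searched, and Pmaip1 had no promoter in the set. Each match is shown with its flanks, with the half-site in capitals, written 5′ to 3′ on the strand of the gene. A match of letters is not a binding site.
Bax, chr7:45467080-45467109, minus strand: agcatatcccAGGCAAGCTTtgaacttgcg
Mdm2, chr10:117710925-117710954, minus strand: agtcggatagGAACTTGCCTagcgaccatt
Trp53, chr11:69580274-69580303, plus strand: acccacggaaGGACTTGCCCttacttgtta
The matches lie 201, 186 and 75 bases before the start site of Bax, Mdm2 and Trp53. Between vehicle tumors and WT these 3 genes differed by -1.37, 0.11 and -0.12 on the log2 scale in CGNP-like cells, and between Node D-like and Node A-like vehicle cells by 0.18, -0.58 and -1.97.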

How the data were processed

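Drop-seq tables of 15 animals were used, 5 WT, 5 vehicle and 5 vismodegib. The deposited values are counts of UMIs per gene and barcode, which the authors made with Drop-seq Tools 1.13 and STAR against mm10 with Cre and SmoM2/EYFP added, after removal of human spike-in cells from tumor libraries (at least 90% mouse reads kept). Per the labels, the submitters' processing notes list STAR 5.4b, bcl2fastq 2.18 and Seurat 2.3.0, with builds mm10 and hg19.

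Barcodes with at least 500 UMIs and 500 genes were kept, with upper limits at 5 SD. Tumor and WT cells were clustered separately (954 and 1413 variable genes, 7 and 11 principal components, 30 neighbors, Louvain resolution 0.8) and named from markers of 13 classes, scored as log2(CPM + 10). The members and pathway genes, 87 in all, were held out. After the data were seen, 11 hemoglobin and Alas2 genes were left out of clustering, since they led granule clusters, and 1 tumor cluster stayed unnamed. Doublets were not called, and the upper limits stand in for this. At most 13 barcodes were shared between any pair of tables.

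UMI counts were summed per animal and class (at least 5 cells) and tested with edgeR 4.0.16 (TMM, filterByExpr, quasi-likelihood test, Benjamini-Hochberg adjustment over all genes tested), with the animal as a block between classes. The ± values beside log2 fold changes are SE, and intervals are 95%. The p-values measure the spread between animals and take the classes as given. The 2 comparisons of groups share the vehicle animals. Equal-weight values average the CPM of the 4 stages in each animal and were compared by exact two-sided permutation tests. Alternatives were DESeq2 1.42.0, RLE scaling, no filter on low counts, leaving out each animal, a replicate block, 1 fit of all 3 groups, upper limits at 4 SD, at least 1000 UMIs, Louvain resolution 1.2, cells of low mitochondrial share, thinned counts and a serial number term. Keeping hemoglobin genes, placing the unnamed cluster with Node C-like cells and a principal component as covariate were added after the data were seen. On simulated counts for vismodegib against vehicle in CGNP-like cells (12371 genes), 50% of genes changed 2-fold and 90% of genes changed 4-fold were recovered, and 83.3% and 100% of those with at least 20 CPM.

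The members and lists were chosen with earlier results of these data known. All 10 members are named throughout, and from each list up to 3 genes per direction with the lowest adjusted p, except for a list gene that is not reported here. Genes with a pattern like that of a member were the 3 with the highest r. Positions are from the GENCODE annotation of mm10, promoters from RefSeq (GRCm38.p6). Python 3.11.15 was used with scikit-learn 1.9.0, pandas 2.3.3, scipy 1.17.1, numpy 2.4.6 and matplotlib 3.10.9, and edgeR ran in R 4.3.3.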

Additional observations from a re-analysis of the deposited data

Results flagged for a closer look

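Of 150 groups of 5 animals (each member in CGNP-like cells and each stage), 9 held an animal whose gap to its nearest neighbor exceeded 0.71 of the range of the group, Dixon's limit, which chance passes in about 1 of 20 groups. Bcl2 in vehicle animal 3 was 24.1 CPM in CGNP-like cells (others 14.4 to 17.0) and 25.7 CPM in Node B-like cells (others 13.03 to 15.8), and Bcl2 in vismodegib animal 4 was low at 7.505 CPM in CGNP-like cells (others 11.9 to 12.6). In Node B-like cells Bcl2l1 was 52.4 CPM in vehicle animal 1 (others 36.0 to 37.6), and Bbc3 was 34.9 CPM in vehicle animal 4 (others 15.1 to 19.6). The other 4 rest on 1 to 4 UMIs in the animal named. In WT animal 3 Bak1 was 15.5 CPM in Node A-like (3 UMIs) and 41.6 CPM in Node D-like cells (4 UMIs). In Node D-like cells Bcl2l11 was 6.12 CPM in WT animal 5 (1 UMI), and Pmaip1 was 6.58 CPM in vehicle animal 2 (1 UMI) and 0 in the others.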

How the results depend on the processing

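Most counts of members called stayed within 1.5 times the reported count. The count for vismodegib against vehicle in CGNP-like cells was 2 in place of 1 under DESeq2, with the serial number term and with the principal component as covariate, where Bcl2 joined Trp53, and ran from 1 to 2 when single animals were left out (2 without vehicle animal 4, with Bbc3). It became 2 in Node A-like cells with the principal component, and 1 in Node C-like cells without the filter on low counts, with the serial number term and with the principal component. Vehicle against WT fell to 2 (CGNP-like), 0 (Node A-like), 1 (Node B-like) and 1 (Node C-like) in thinned counts, which hold fewer UMIs. In Node B-like cells it was 2 in cells of low mitochondrial share and ran from 2 to 4 when single animals were left out (2 without WT animal 1 or 4), and in Node D-like cells it was 2 with all 3 groups in 1 fit. Between Node A-like and Node C-like vismodegib cells it was 3 without the animal block, and between Node A-like and Node D-like WT cells 1 with at least 1000 UMIs. Against CGNP-like cells it was 7 in astrocyte-like cells without the filter, 2 to 4 in endothelial-like (2 without vismodegib animal 5) and 3 to 6 in vascular fibroblast-like cells (3 without vismodegib animal 5) when single animals were left out. The cause of these shifts was not tested. For single genes, 4283 values kept direction and call, 292 lost and 54 gained a call, and Egr1 between Node D-like and Node A-like vismodegib cells turned to -0.18 at Louvain resolution 1.2.

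Whether replicate numbers pair the animals cannot be decided from 5 animals per group, and no pairing was used in the reported tests. In the labels, same-numbered vehicle and vismodegib animals carry neighboring serial numbers. The correlation of deviations of same-numbered animals ran from -0.15 to 0.39 for vismodegib and vehicle and from -0.19 to 0.00084 for vehicle and WT, and 2 of 5 and 0 of 5 correlated best with their own number. With the replicate block 1 member was called for vismodegib against vehicle in CGNP-like cells and 0 in each stage, and 4, 3, 3, 2 and 1 for vehicle against WT in CGNP-like and Node A-like to Node D-like cells.

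Counts over all genes moved more. For vismodegib against vehicle, the low mitochondrial share gave 951 genes and the principal component 2821 in CGNP-like cells (reported 1586). DESeq2, no filter, the serial number term and the principal component gave 341, 396, 343 and 576 in Node A-like cells (220), 514, 468, 485 and 956 in Node B-like cells (305) and 273, 409, 296 and 549 in Node C-like cells (146). The low mitochondrial share gave 170 in Node B-like and 87 in Node C-like cells. Node C-like cells also gave 74 at Louvain resolution 1.2, 231 with the replicate block and 53 to 316 when single animals were left out, and Node D-like cells 1 to 44 over all alternatives (4). No filter gave 97, 289 and 47 in astrocyte-like (39), oligodendrocyte-like (145) and microglia-like cells (5). Leaving out single animals took these as low as 2, 77 and 0 and the interaction (513) as low as 266, and DESeq2 gave 218 for the interaction. For vehicle against WT, thinned counts gave 2139 genes in CGNP-like cells (5637) and 147, 494, 508 and 399 in Node A-like to Node D-like cells. No filter gave 5014, 6117 and 3972 in the first 3 of these, the low mitochondrial share 1567 and 591 in Node C-like and Node D-like cells, and Louvain resolution 1.2 gave 730 in the latter. Without the animal block Node C-like against Node A-like cells gave 2092 in WT and 3875 in vehicle animals. No filter gave 8196, 6874 and 7273 in astrocyte-like, endothelial-like and vascular fibroblast-like against CGNP-like cells. Pmaip1 and Bak1 rest on 1 to 4 UMIs in some animals and stages, as do called values of Bcl2l11 (Node D-like vehicle cells, 1 to 3 UMIs) and Bcl2 (Node A-like and Node B-like WT cells, 0 to 9 UMIs).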
